A study of Mus musculus with 12 samples.

Results

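Activated neural stem cells were compared with quiescent neural stem cells that had not been irradiated, both sorted from the adult mouse subventricular zone. The comparison used the 6 arrays of these groups that held values, out of 10 such arrays and 12 samples in the series: activated replicates 1, 2 and 3, and quiescent replicates 1, 2 and 4. Quiescent replicate 3 and activated replicate 4 were not analysed here. The cells came from male C57B6J mice and were sorted fresh by flow cytometry, and no genotype, allele or treatment is named for either group. The third group of the series, 4 arrays of quiescent cells taken 48 h after irradiation, entered the fit only to estimate the spread of each gene. The sort markers, the exact age of the adult mice, the radiation dose and the number of animals behind a sample are not stated in the labels used here. Nothing in the labels says that replicates came from separate animals, so the p-values measure only how far these samples differ from each other, and that spread may be technical.

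Neural stem cells of the adult subventricular zone are glial cells that line the lateral ventricle. Most rest outside the cell cycle and share with astrocytes the genes for glutamate uptake, water and ion handling, lipid export and contact with neighbouring cells. When activated they enter the cell cycle and give rise to dividing progenitors and then to neuroblasts, which migrate to the olfactory bulb and become inhibitory interneurons.

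Expression was measured on Affymetrix MOE 430 2.0 arrays from total RNA amplified before labelling, and each value is a probe set's intensity, the brightness of the probes that match a transcript. Of 45037 probe sets, 34945 carried exactly 1 gene symbol, and they gave 18193 genes, each represented by its brightest probe set. Differences are given as log2(intensity + 16), activated minus quiescent, with the standard error (SE) of the limma fit on 3 arrays against 3. This scale understates the change of dim genes, and the small number of arrays limits the precision. The spread of each gene was estimated jointly over all groups. Arrays at the lower limit barely vary, so they can make the SE and p-value of such genes too small. Where a gene's values are given as 3 against 3, those of quiescent replicates 1, 2 and 4 come first and those of activated replicates 1, 2 and 3 second. Probes differ in brightness, so intensities of different probe sets were not set against each other. The marker sums below are the exception, and bright probe sets weigh most in them. An intensity of 10 or less was near the lower limit of the table, and between 50.8% and 53.6% of the probe sets lay there on each of the 6 arrays. Genes were called where the adjusted p lay under 0.05, with Benjamini-Hochberg adjustment over all 18193 genes.

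The labels were first set against marker genes. All 8 markers of activated stem cells and dividing progenitors were higher on every activated array than on any quiescent array. The same was true of 1790 of all 18193 genes. Of the 8 markers 7 rose, Egfr being the exception. Their summed intensity was 1701 to 3270 on the quiescent arrays and 44070 to 47311 on the activated arrays. Of 15 markers of astroglia and quiescent stem cells, 12 fell (7 when these 2 groups were fitted alone), and their sum was 139748 to 143508 on the quiescent arrays and 31959 to 47512 on the activated arrays. The groups did not overlap in either sum, so both labels matched their markers. The stem cell marker Prom1 (909, 1424 and 324 on the quiescent arrays, 381, 159 and 120 on the activated arrays) and the astroglial filament gene Gfap (418, 164 and 7 against 152, 108 and 26) overlapped between the groups and were not called. Another probe set of Gfap differed by -3.70.

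In the fit, 1095 of the 18193 genes were called (6.02%), of which 528 were higher (2.9%) and 567 lower (3.12%) in activated cells. The median difference was 3.21 among the genes that rose and -3.25 among those that fell, while the median over all genes was 0.00. At an unadjusted p under 0.05 there were 2930 genes. A total of 389 genes (2.14%) were called under each of 19 other settings as well, which left out 1 array at a time or changed the scaling, the filter, the added constant or the arrays fitted, 195 of them higher and 194 lower. The call of 501 genes was lost when 1 array or another was left out. Fitted on these 2 groups alone, 694 genes were called. Of the genes named below with values, that fit did not call Bhlhe40, Ccnd2, Cdon, Cks1b, Dll1, Eef1b2, Ezh2, Fgfr1, Gabrb1, Gli3, Id3, Id4, Ifit3, Itgav, Lgr4, Mal, Malat1, Mrpl4, Nfix, Omg, Slco1c1, Timp4 and Tubb3 (adjusted p 0.0502 to 0.131). Without the dimmest 50% of genes 1443 were called, but Id4, Malat1, Ndufc2, Nfix, Qk, Rgs20 and Tuba1a were not (0.117 to 0.634). With 1 in place of 16 added before the logarithm, Bcl2l11, Cks1b, Dlx2 and Tubb3 were not called (0.0554 to 0.0811), and with 64 added Ifit3 was not (0.0542). On the 6 arrays themselves, 3513 genes (19.3%) had groups that did not overlap, with the activated arrays on the high side in 1790 and on the low side in 1723, and all 1095 called genes were among them. In sorted populations measured in bulk, fewer cells of a type and less RNA per cell cannot be told apart.

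Of the 528 genes that rose, 174 (33.0%) were near the lower limit on all 3 quiescent arrays, whereas 41 of the 567 genes that fell (7.23%) were near it on all 3 activated arrays. Likewise, 108 genes were at 10 or less on every quiescent array and over 100 on every activated array, against 37 genes with the reverse pattern. The second count was 67 without quiescent replicate 4, 63 without activated replicate 1 and 73 without activated replicate 2. The first count was 127 to 158 when any 1 array was left out. Of the 108 genes 102 were called, and of the 37 genes 26. The spread was estimated over 3 quiescent, 4 irradiated quiescent and 3 activated arrays. A gene near the limit in quiescent cells can thus have more nearly constant arrays than a gene near it in activated cells. The part of this imbalance in the shares among called genes was not tested.

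**Figure D1:**
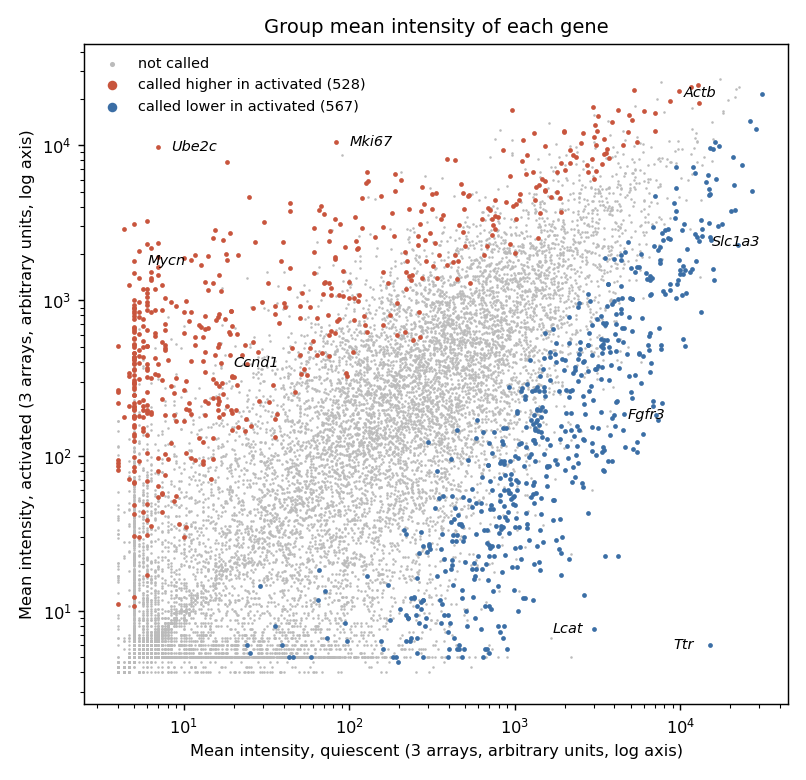
Mean intensity of each of 18193 genes on the 3 quiescent arrays (x axis) against the 3 activated arrays (y axis), both log axes in arbitrary units, with the 528 genes called higher in red, the 567 called lower in blue and all others in grey. Many red points sit at the left edge, near the lower limit of the quiescent arrays, while most blue points keep a measurable activated level.

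The largest rise was that of Ube2c, the ubiquitin-conjugating enzyme that works with the anaphase-promoting complex. Its intensity was 6, 6 and 9 on the quiescent arrays and 9116, 11384 and 8839 on the activated arrays, a difference of 8.73 (adjusted p = 7.92e-08). Every quiescent array was near the lower limit and every activated array was bright. The next largest were Cdca8, a chromosomal passenger protein (7.94), Pbk, a mitotic kinase (7.21), Aspm, a spindle pole protein (7.13), and Mki67, which coats mitotic chromosomes (7.08). Cyclin A2 (Ccna2) rose by 6.98, the replication helicase subunit Mcm5 by 6.69 and the uracil glycosylase Ung by 6.58. Insm1, a zinc finger factor of intermediate neural progenitors, rose by 6.59 and was the only gene among the 12 largest rises that belongs to a lineage rather than to the cell cycle or DNA metabolism. Cks1b, a partner of cyclin-dependent kinases, was the least certain of them (8, 372 and 9 against 4374, 6708 and 6616, adjusted p = 0.0315). Its adjusted p was 0.0510 to 0.103 when any activated array, quiescent replicate 1 or 4, or irradiated replicate 1, 2 or 3 was left out.

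The largest fall was that of Ttr, transthyretin, a carrier of thyroid hormone and retinol. It read 17831, 10772 and 16624 on the quiescent arrays and 6, 6 and 6 on the activated arrays, a difference of -9.39 (adjusted p = 5.38e-06). Ttr is also the most abundant transcript of the choroid plexus, and it made up 99.6% of the summed intensity of 10 choroid plexus markers on the quiescent arrays. The choroid plexus markers Aqp1, Clic6, Folr1, Kcne2, Slc4a5 and Trpv4 lay near the lower limit on all 6 arrays. The markers Kl, Otx2 and Sostdc1 were each over it on some quiescent array, and none of them was called. The part of choroid plexus cells in the fall of Ttr was not tested. Lcat, which esterifies cholesterol on lipoprotein particles, read 3680, 3067 and 2338 against 11, 6 and 6, a difference of -6.99. Falls of similar size were seen for Septin4, a filament-forming GTPase (-6.89), Gdf10, a secreted member of the TGF-beta family (-6.60), and Mfap3l (-6.55). On the arrays, Gdf10 read 2690, 2212 and 2976 in quiescent cells and 5, 27 and 6 in activated cells. The differences were -6.09 for Gabrb1, a GABA receptor subunit, -5.91 for Tmem88b, -5.85 for the metalloproteinase inhibitor Timp4, -5.85 for the myelin glycoprotein Omg and -5.82 for the cytochrome P450 Cyp2d22. Mal and Cacna2d2 completed the 12 largest falls, with -6.21 and -5.85. The call of Mal was lost without activated replicate 1 or 2 or quiescent replicate 2 or 4 (adjusted p 0.0519 to 0.0607). That of Cacna2d2 was lost without any one activated or quiescent array or irradiated replicate 4 (0.0547 to 0.0977).

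**Figure D2:**
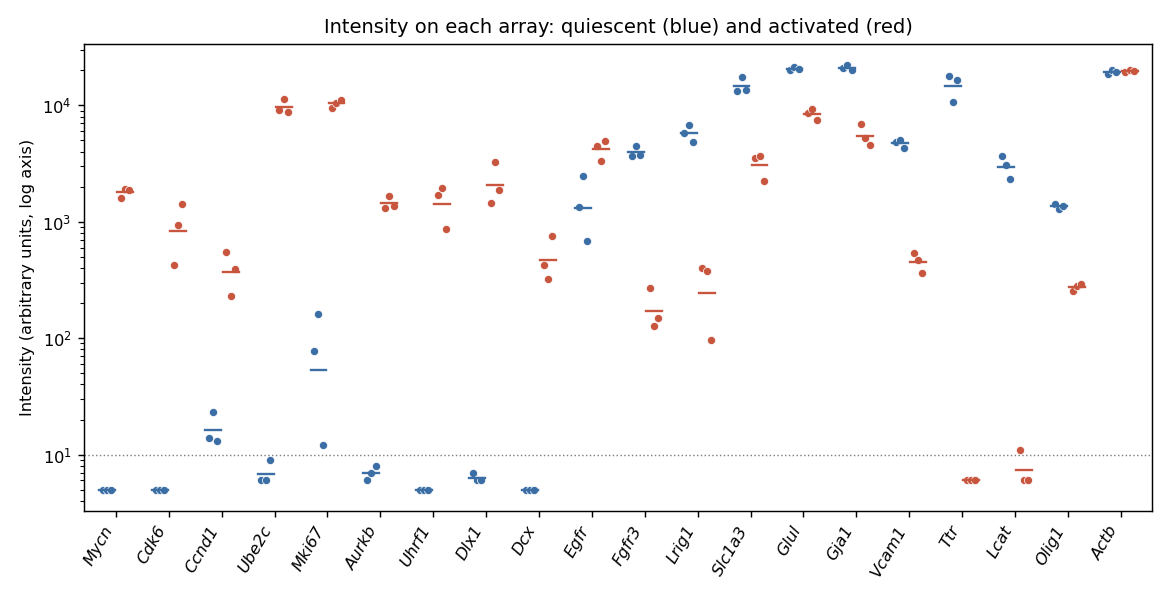
Intensity of 20 genes on each of the 3 quiescent arrays (blue points) and 3 activated arrays (red points), on a log axis in arbitrary units, with horizontal bars at their geometric mean and a dotted line at an intensity of 10. Mycn, Cdk6, Uhrf1 and Dcx read 5 on all quiescent arrays, Ttr reads 6 on all activated arrays, and Actb stays between 18686 and 20275 on all 6.

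Among the genes that start a cell cycle, 18 of 48 measured G1 cyclins, kinases, inhibitors, E2F and retinoblastoma family members rose and none fell, with a median difference of 1.63, and 10 of the 18 were called under all 19 other settings. Mycn, a growth-promoting transcription factor, read 5, 5 and 5 on the quiescent arrays and 1597, 1919 and 1883 on the activated arrays, a difference of 6.43 ± 0.064 (adjusted p = 1.03e-08). Its relative Myc was dim in both groups (108, 7 and 25 against 7, 40 and 37) and overlapped. Cdk6, a kinase that drives cells out of G1, read 5, 5 and 5 against 425, 936 and 1435 (5.33 ± 0.37). Its partner cyclin D1 (Ccnd1) was 14, 23 and 13 in quiescent cells and 555, 230 and 396 in activated cells, a difference of 3.58 ± 0.28, with no overlap. Cyclin D2 (Ccnd2) was 170, 451 and 2274 against 16228, 16552 and 18040. Its quiescent arrays spread widely, and its adjusted p of 0.0228 became 0.0536 to 0.0787 without any one activated array or quiescent replicate 1 or 2. The other Ccnd2 probe sets were higher too, by 2.28 to 7.06, one of them at 260, 223 and 200 against 7891, 7347 and 8430. E2f2, which activates S phase genes, rose by 3.25 and Gas2l3, a cytoskeletal linker of dividing cells, by 5.40. The cell cycle brake Cdkn1b was not called. It read 910, 2141 and 2694 in quiescent cells and 2150, 2273 and 2260 in activated cells, and the 95% confidence interval of its difference ran from -0.68 to 1.39. Cdkn1c was near the lower limit on 5 of the 6 arrays. In the Myc and Max network, 3 of 13 members rose (Mycn, Mxd3 and Mnt) and none fell. There was 1 rise in the fit of the 2 groups alone and without the dimmest 50% of genes, and 1 fall without quiescent replicate 2.

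Of 36 genes listed under nucleotide synthesis, 7 rose and none fell (median 1.90), with 1 fall called without irradiated replicate 2. Tk1, thymidine kinase, read 6, 5 and 5 against 861, 283 and 288, a difference of 4.33. Uridine-cytidine kinase 2 (Uck2) was 12, 8 and 10 on the quiescent arrays and 3869, 920 and 864 on the activated arrays, and CTP synthase (Ctps) 21, 27 and 11 against 341, 510 and 1212. These 3 were called under all 19 other settings. The count of 7 became 3 without activated replicate 2 or 3 or quiescent replicate 2, and 4 without activated replicate 1 or quiescent replicate 1 or 4. The abundant Nme2 was not called (1.33). Neither was Dpysl2 (-0.10), which is on the list but is not an enzyme of nucleotide synthesis. Among 24 enzymes of serine synthesis and folate one-carbon metabolism 3 rose and 1 fell. The fall was lost without activated replicate 2, any quiescent array, or irradiated replicate 2, 3 or 4, and a second fall was called without activated replicate 1. The mitochondrial folate enzymes Mthfd1l (5, 5 and 6 against 174, 196 and 170, 3.20 ± 0.051, adjusted p = 4.69e-08) and Mthfd2 (5, 5 and 5 against 476, 338 and 765) rose from the lower limit. Aldh1l1, an astroglial folate enzyme, was the one that fell. Phgdh, the first enzyme of serine synthesis, read 13162, 10878 and 9403 in quiescent cells and 4152, 5821 and 8037 in activated cells (-0.93, adjusted p = 0.0664), and Psat1, the next enzyme, differed by -1.32 (adjusted p = 0.245). These 2 were already bright in quiescent cells, did not overlap between the groups and missed the threshold.

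Centromere and kinetochore genes, which attach chromosomes to the spindle, held the largest share of rises among the 48 function lists. Of 50 measured, 29 rose, none fell, and 49 had a difference above 0 (median 3.06). In the fit of the 2 groups alone 18 rose, and 14 of the 29 were called under all 19 other settings. Aurkb, the kinase of the chromosomal passenger complex, read 6, 7 and 8 on the quiescent arrays and 1319, 1658 and 1372 on the activated arrays, a difference of 5.99 ± 0.085 (adjusted p = 2.75e-08). Cenpf, a transient kinetochore protein, read 5, 5 and 8 against 2156, 2839 and 1904. Spc24, part of the complex that holds microtubules, read 6, 6 and 6 against 469, 620 and 440, and the scaffold Knl1 read 5, 5 and 5 against 778, 1243 and 1007. In all 4 the quiescent arrays were near the lower limit and the activated arrays lay close together. The checkpoint genes Bub3 and Mad2l1 were already present in quiescent cells. Bub3 read 200, 505 and 363 against 2703, 2706 and 1851 (adjusted p = 0.0651) and Mad2l1 355, 34 and 1123 against 1930, 2274 and 3217 (adjusted p = 0.145), and neither was called, although their groups did not overlap.

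Kinesins are motor proteins that move along microtubules. Of 39 measured, 8 rose, 1 fell, and the median was 0.29. The 8 that rose were Kif2c, Kif4, Kif11, Kif18b, Kif20a, Kif20b, Kif22 and Kif23, which serve the spindle, the chromosomes or cytokinesis, and all 8 were called under every other setting of the 19. Kif22, which moves chromosome arms, read 6, 6 and 6 against 1434, 1300 and 846 (5.75 ± 0.17). Kif11, the motor that separates spindle poles, read 7, 7 and 38 against 2425, 2595 and 2378, and Kif23, of the central spindle, 6, 9 and 7 against 1203, 1791 and 787. The transport motor Kif1b was the one that fell, with -1.68 (5776, 9054 and 8761 against 1941, 3359 and 2111), and the list gained a second fall without quiescent replicate 4 or irradiated replicate 3. The transport motors Kif5b and Kif21a were not called (152, 2907 and 67 against 1656, 1356 and 705, and 704, 104 and 507 against 1975, 1827 and 2527).

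Condensin and cohesin genes, which fold and hold chromosomes, rose in 11 of 29 cases (median 2.52), and none fell. The count was 6 without quiescent replicate 1 and 7 without activated replicate 2 or quiescent replicate 2 or 4. Top2a, which untangles DNA, read 4, 5 and 4 against 4401, 2992 and 1266, and Ncapg2, a condensin II subunit, read 6, 6 and 6 against 369, 458 and 346 (4.20 ± 0.088). Cdca5, which protects cohesin, rose by 4.79. Smc4, the core of condensin, was 14, 55 and 202 in quiescent cells and 9379, 7715 and 8880 in activated cells. Its difference of 6.80 exceeded that of Cks1b, but its SE was 1.67 and it was not called (adjusted p = 0.0631). Pttg1, securin, was lower in activated cells (4053, 6949 and 2583 against 1904, 2159 and 800, adjusted p = 0.136). Of 44 centrosome and centriole genes 10 rose (median 1.64). Plk4, the kinase that starts centriole duplication, read 5, 5 and 5 against 257, 969 and 760, and Tpx2, a spindle assembly factor, 7, 39 and 9 against 1134, 2850 and 1453.

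**Figure D3:**
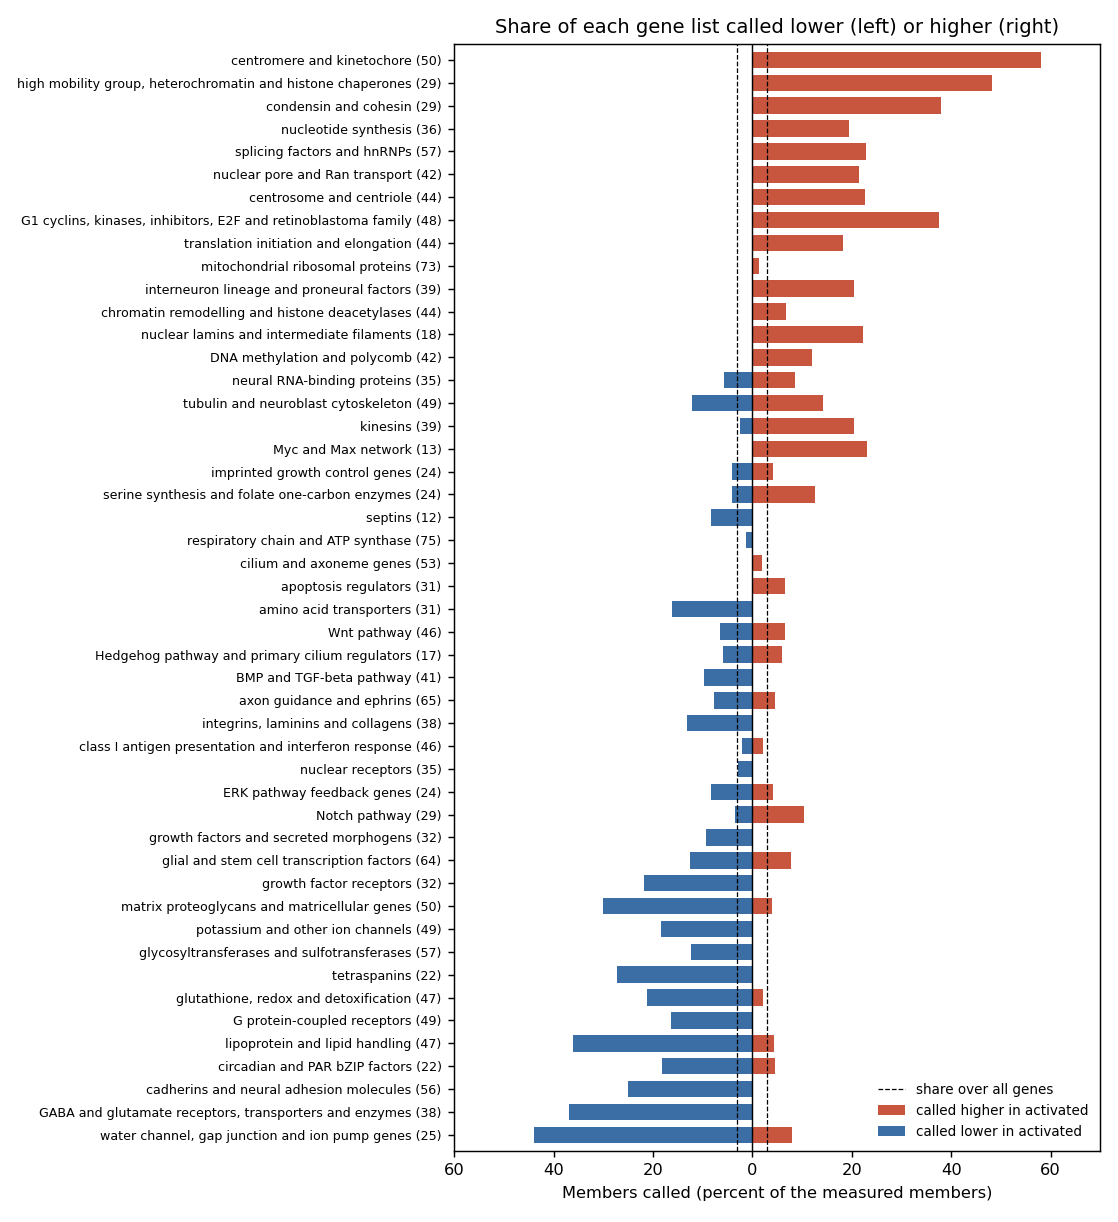
Percent of the measured members of 48 gene lists called higher (red, right) or lower (blue, left) in activated cells, ordered by the median difference of the list, with the number of members measured in parentheses and dashed lines at the shares over all genes, 2.9% and 3.12%. Mitotic, chromatin and RNA lists stand at the top with rises, and lists of transport, adhesion and lipid genes at the bottom with falls.

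The promoters of the genes that rose were examined because the contrast did not use their sequence. RefSeq windows from 250 bases before to 50 bases after the annotated start (assembly GRCm38.p6) were available for 11791 of the 18193 genes with a single window, among them 354 that rose and 324 that fell. The cell cycle homology region (CHR, TTTGAA) is a promoter element known from genes of late cell cycle, often paired with CCAAT boxes, and E2F motifs (TTTGGCGC, TTTCCCGC, TTTGCCGC and TTTCGCGC) are known from genes of S phase. Both strands were searched. Below are 5 windows, 5′ to 3′ on the strand of the gene, with CHR, CCAAT and E2F matches in capitals. They were picked among windows of genes that rose that held a CHR and repeated CCAAT matches, so these matches were fixed in advance. The windows of Plk4 and Birc5, which also rose, held neither motif.
Ube2c (chr2:164769679-164769978, plus strand): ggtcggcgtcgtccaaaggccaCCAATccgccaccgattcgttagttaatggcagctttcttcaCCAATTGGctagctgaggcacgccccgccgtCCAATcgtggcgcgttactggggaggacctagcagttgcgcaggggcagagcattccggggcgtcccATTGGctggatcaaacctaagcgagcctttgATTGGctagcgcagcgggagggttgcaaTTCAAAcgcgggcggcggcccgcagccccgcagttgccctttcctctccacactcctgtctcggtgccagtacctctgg
Cenpf (chr1:189688037-189688336, minus strand): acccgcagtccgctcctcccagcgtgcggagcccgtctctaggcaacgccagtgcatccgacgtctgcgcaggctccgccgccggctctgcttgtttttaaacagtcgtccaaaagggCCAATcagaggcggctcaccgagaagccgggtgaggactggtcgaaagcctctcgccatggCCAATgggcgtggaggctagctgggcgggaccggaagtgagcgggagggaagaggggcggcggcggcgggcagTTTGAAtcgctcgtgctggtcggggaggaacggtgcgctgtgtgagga
Kif22 (chr7:127042371-127042670, minus strand): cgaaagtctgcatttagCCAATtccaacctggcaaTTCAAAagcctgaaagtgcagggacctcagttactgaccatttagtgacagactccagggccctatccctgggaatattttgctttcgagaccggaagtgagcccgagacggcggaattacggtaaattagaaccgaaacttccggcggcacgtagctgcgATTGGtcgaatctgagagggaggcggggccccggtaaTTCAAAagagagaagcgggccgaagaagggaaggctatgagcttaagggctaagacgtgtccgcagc
Aspm (chr1:139454523-139454822, plus strand): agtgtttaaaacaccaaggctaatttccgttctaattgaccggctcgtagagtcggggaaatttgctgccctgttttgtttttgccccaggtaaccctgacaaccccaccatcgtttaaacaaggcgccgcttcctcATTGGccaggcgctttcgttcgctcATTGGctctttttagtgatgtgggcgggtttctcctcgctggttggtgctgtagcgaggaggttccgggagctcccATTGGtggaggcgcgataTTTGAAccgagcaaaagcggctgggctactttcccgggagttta
Cdk1 (chr10:69352863-69353162, minus strand): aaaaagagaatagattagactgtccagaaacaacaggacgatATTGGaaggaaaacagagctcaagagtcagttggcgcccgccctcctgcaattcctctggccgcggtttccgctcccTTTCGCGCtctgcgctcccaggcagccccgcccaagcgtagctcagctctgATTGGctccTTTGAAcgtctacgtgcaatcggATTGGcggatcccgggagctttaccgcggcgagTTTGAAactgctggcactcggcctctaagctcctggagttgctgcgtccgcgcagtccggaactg
The Ube2c window held 1 CHR and 6 CCAAT matches, of which 2 overlap on opposite strands, that of Cenpf 1 and 2, that of Kif22 2 and 2, and that of Aspm 1 and 3. The window of Cdk1, the kinase that starts mitosis (5, 8 and 7 against 346, 769 and 664), held 2 CHR, 3 CCAAT and 1 E2F match.

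A CHR was present in 85 of the 354 windows of genes that rose (24.0%) and in 17 of the 324 windows of genes that fell (5.25%), against 13.5% of all 11791 windows. Among windows of genes that rose from the lower limit on all 3 quiescent arrays the share was 38.0% (46 of 121), and among the other genes that rose it was 16.7% (39 of 233). E2F motifs were in 15.5% of the windows of genes that rose, in 14.9% of those that rose from the lower limit and in 15.9% of the others, against 3.40% for genes that fell and 3.47% of all windows. CHR and CCAAT were found together in 17.5% of the windows of genes that rose, in 1.54% of those that fell and in 5.37% of all. The called kinetochore genes had a CHR in 12 of 22 windows and the kinesins that rose in 7 of 7, while the splicing genes that rose had none in 9. The palindromic NFI motif (TTGGC, 5 unspecified bases, GCCAA) was in 3 of all windows and in none of a called gene. A match is a string of letters and does not show binding, and the median GC content was 61.3% for genes that rose, 62.0% for those that fell and 58.7% overall.

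Of 29 high mobility group, heterochromatin and histone chaperone genes 14 rose and none fell (median 2.65). The count was 7 without activated replicate 2 or quiescent replicate 2 and 8 without activated replicate 1 or quiescent replicate 4. Chaf1b, which deposits histones behind the replication fork, read 7, 9 and 9 against 213, 317 and 307 (3.58 ± 0.13, adjusted p = 7.01e-06). The histone methyltransferase Suv39h2 read 6, 6 and 6 against 178, 348 and 543, the remodeller Hells 5, 5 and 5 against 70, 147 and 186, and the chaperone Asf1b 5, 5 and 5 against 206, 77 and 188. In each, all quiescent arrays were near the lower limit. Hmgb2, a chromatin protein of dividing progenitors, was 14410, 14029 and 13231 on the activated arrays, but 316, 7 and 4529 on the quiescent arrays, and it was not called (adjusted p = 0.134). Uhrf1, which guides maintenance DNA methylation to new DNA, read 5, 5 and 5 against 1686, 1947 and 872, a difference of 6.10 ± 0.26. It was the steadiest of the 5 genes that rose among 42 DNA methylation and polycomb genes (11.9% called, against 6.02% of all genes). That count was 1 without activated replicate 2, 2 in the fit of the 2 groups alone and without activated replicate 1 or quiescent replicate 4, and 3 without quiescent replicate 1 or 2 or irradiated replicate 1 or 2. Ezh2, the polycomb methyltransferase, rose by 4.38 (adjusted p = 0.0147, and 0.0558 without activated replicate 2). The histone-binding Rbbp7 was bright in both groups and not called (0.74). Of 44 remodelling and deacetylase genes, Arid2, Pbrm1 and Ruvbl1 rose and none fell (6.82% called, against 6.02% of all genes). This count of 3 was 1 without activated replicate 1 or 2, and 5 without quiescent replicate 1.

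At the nuclear envelope, 4 of 18 lamin and intermediate filament genes rose, all under every other setting of the 19. Lamin B1 (Lmnb1) read 9, 20 and 16 against 2722, 2054 and 2846 (6.37 ± 0.51). Banf1, which bridges DNA and the envelope, rose by 5.21, and Tmpo, a lamina partner, by 5.34. Nestin (Nes), the filament of neural progenitors, read 11, 6 and 6 in quiescent cells and 120, 283 and 143 in activated cells (2.98 ± 0.27). Vimentin (Vim) was bright in both, 2774, 3046 and 1536 against 6629, 8050 and 4544, without overlap and without a call (adjusted p = 0.179). Of 42 nuclear pore and Ran transport genes 9 rose (median 1.75), with 5 in the fit of the 2 groups alone. Ran, the GTPase of nuclear transport, read 2888, 2610 and 3795 against 8986, 10821 and 10505, a rise of 1.71 ± 0.21. The import receptor Kpna2 read 41, 24 and 160 against 2143, 2990 and 2079, and the pore protein Nup205 20, 17 and 8 against 506, 216 and 211.

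Genes of RNA processing and translation lay above 0 for the most part. Of 57 splicing factors and hnRNPs, 53 had a difference above 0 (median 1.88). The groups did not overlap in 42 of the 57, against 19.3% of all genes, and 13 rose (22.8%, against 2.9% of all genes). The count of 13 was 2 without activated replicate 2, 4 without activated replicate 1, 5 without activated replicate 3 or quiescent replicate 4, and 6 without quiescent replicate 1. Srsf3, a splicing regulator, read 1181, 1184 and 1661 against 4122, 6162 and 5804 (1.98 ± 0.20, adjusted p = 0.00136), and it was the one member called under all 19 other settings. Prpf19 was bright in both groups and differed by -0.13 ± 0.28. The probe sets of Hnrnpab did not give 1 answer. The brightest differed by 0.072 ± 0.13, while the other 6 were higher in activated cells by 2.48 to 3.83, one of them at 915, 519 and 816 against 11330, 10839 and 9749. Of 44 translation initiation and elongation factors 8 rose (median 1.25), 5 without activated replicate 2 and 1 in the fit of the 2 groups alone. The poly(A) binding protein Pabpc1 read 512, 120 and 196 against 5598, 5224 and 5365 (4.45 ± 0.58). The elongation factor Eef1b2 read 1262, 1028 and 2244 against 5345, 5511 and 4601, whereas Eef1d (4170, 11306 and 2384 against 8670, 11328 and 10436) overlapped between the groups.

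Mitochondrial genes were taken in 2 lists, of which 1.37% and 1.33% were called, against 6.02% of all genes. Of 73 mitochondrial ribosomal proteins 63 had a difference above 0 (median 1.04), but only Mrpl4 rose (33, 28 and 79 against 250, 310 and 206), and the count was 2 or 3 without quiescent replicate 1 or 4 or irradiated replicate 1 or 2. Of 75 respiratory chain and ATP synthase genes 38 were above 0 and the median was 0.00. Ndufc2, a complex I subunit, was the only one called (-0.37 ± 0.084, adjusted p = 0.0484), and its other probe sets differed by 0.30 and 0.46. Its call was lost without any one activated or quiescent array or irradiated replicate 2 or 4 (adjusted p 0.0628 to 0.144), and 5 members were called higher without quiescent replicate 1. Atp5a1, the catalytic core of ATP synthase, read 13973, 11489 and 11804 against 12462, 12367 and 11389, and its 95% interval ran from -0.31 to 0.24. Cox5b, of cytochrome c oxidase, had an interval from -0.48 to 0.014.

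A narrow interval was defined as a 95% confidence interval lying wholly between -1 and 1 in a gene with a mean over 100 in both groups. Such intervals were found in 144 of 5041 such genes (2.86%), and in 25 of 71 respiratory genes of that brightness (35.2%). Actb, cytoplasmic actin, read 18686, 20199 and 19279 against 19279, 20275 and 19665 (0.026 ± 0.078). The signalling adaptor Ywhae (0.06 ± 0.10), the mitochondrial pore Vdac1 (-0.094 ± 0.13) and the chaperone Hspa8 (-0.15 ± 0.22) were also among the 12 brightest genes with a narrow interval. Of the 144, 7 were called, 6 lower and 1 higher. Tuba1a, a tubulin, was the one that rose (13556, 12653 and 12858 against 18495, 19253 and 18845, 0.53 ± 0.064). Rgs20, a regulator of G protein signalling, fell by 0.63 ± 0.064 (15275, 16746 and 16324 against 11339, 9939 and 10007). The nuclear RNA Malat1 read 28484, 34883 and 30607 against 21799, 19380 and 22874, a difference of -0.55. Of its 7 probe sets 6 were lower, and the other, dimmer one was higher by 1.25. With the mean of a gene's probe sets in place of the brightest, Malat1, Rgs20 and Ndufc2 were not called (adjusted p = 0.106, 0.116 and 1).

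**Figure D4:**
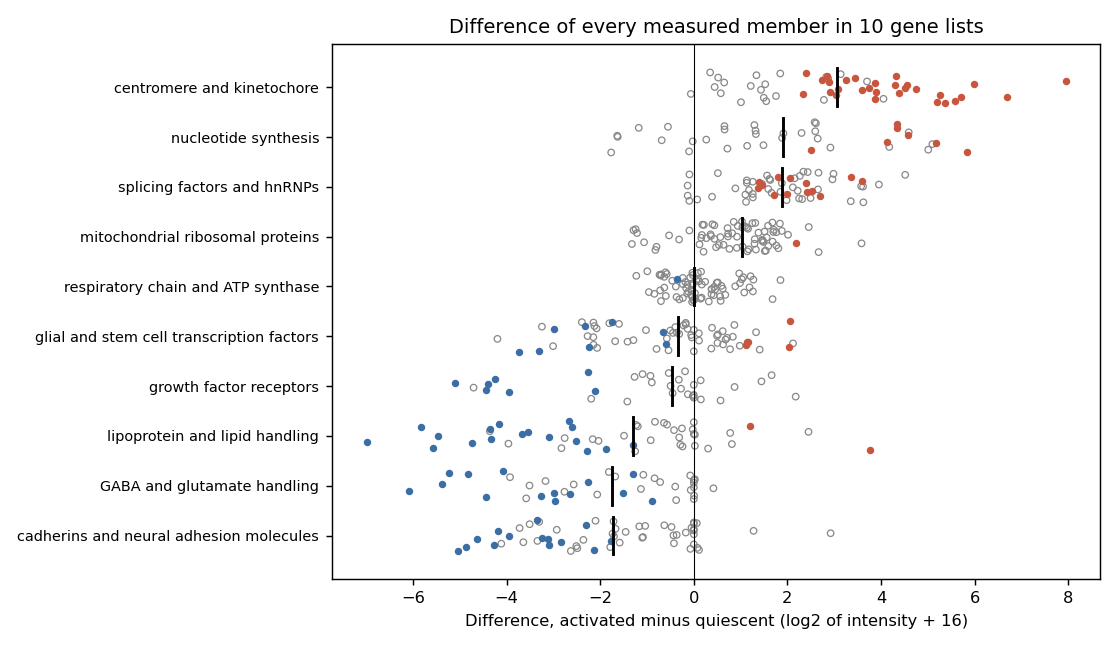
Difference of every measured member of 10 gene lists, activated minus quiescent, in log2 of intensity + 16 (x axis), with members called higher in red, called lower in blue, not called as open circles, and the list median as a black bar. Kinetochore genes lie almost wholly to the right of 0 (median 3.06), respiratory genes close around it (0.00), and adhesion and GABA and glutamate genes mostly to the left (-1.73 and -1.75).

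Transcription factors of the interneuron lineage rose in 8 of 39 cases and none fell (median 0.80). The count was 5 without activated replicate 2 or quiescent replicate 1. Dlx1, a homeobox factor of forebrain inhibitory neurons, read 7, 6 and 6 against 1440, 3246 and 1875 (6.54 ± 0.25, adjusted p = 9.69e-06). Myt1, a zinc finger factor of neuronal commitment, read 6, 6 and 6 against 735, 1405 and 1200, and Bcl11a 17, 5 and 5 against 546, 785 and 1436. All activated arrays of these 3 were over 500 and no quiescent array was over 20. Dlx2 was 94, 15 and 277 against 6848, 7345 and 6052, with a difference of 6.08 and an adjusted p of 0.0458 that became 0.0613 to 0.137 without any one activated or quiescent array or irradiated replicate 2 or 4. Sox11 and Tcf4 were bright in activated cells but already present in quiescent cells, and neither was called (954, 1798 and 140 against 11514, 11432 and 9669 for Sox11, 3987, 6735 and 5033 against 8812, 7833 and 6837 for Tcf4). The other probe sets of Sox11 were higher too, 2 of them by 5.82 and 5.86.

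Neuroblast genes were measured in the same samples. Dcx, a microtubule protein of migrating neuroblasts, read 5, 5 and 5 in quiescent cells and 426, 324 and 756 in activated cells (4.54 ± 0.26). Its other probe sets differed by 1.06, 2.75 and 3.39. Elavl4, a neuronal RNA-binding protein, read 5, 5 and 5 against 357, 479 and 1433, and the surface antigen Cd24a 7, 7 and 78 against 2018, 4599 and 3052. Of 10 neuroblast markers, 9 had a difference above 0 and 4 rose. The summed intensity of the 10 was 1215 to 2121 on the quiescent arrays and 8128 to 11607 on the activated arrays. Elavl3 made up 78.9% of the quiescent sum, overlapped and was not called (338, 1851 and 1945 against 2061, 1738 and 1196). Gad1 was not called either and was near the lower limit on every activated array (675, 6 and 6 against 6, 5 and 6). The part of neuroblasts in the lineage factor result was not tested. Of 49 tubulin and neuroblast cytoskeleton genes 7 rose and 6 fell. The rises numbered 4 without activated replicate 2 or 3, and the falls 2 in the fit of the 2 groups alone and without activated replicate 1, 1 without activated replicate 2 or quiescent replicate 1 or 2, and 0 without quiescent replicate 4. Tubb5, a widely expressed tubulin, rose from 220, 427 and 656 to 7486, 9198 and 7560, and Nudc, a dynein cofactor, from 244, 479 and 374 to 2548, 3958 and 4105. Tubb3 (163, 7 and 60 against 2949, 4242 and 1201) had an adjusted p of 0.0346 that was 0.0541 to 0.118 without any one activated array, quiescent replicate 2 or 4, or irradiated replicate 1, 2 or 4. Cfl1, an actin-severing protein, differed by 0.13 ± 0.14. Of 35 neural RNA-binding proteins 3 rose and 2 fell (14.3% called, against 6.02% of all genes). The falls were 1 without activated replicate 1 or 2 or quiescent replicate 2 or 4. Qk, a glial member, fell on its brightest probe set (3770, 5037 and 4318 against 2175, 1651 and 2058, -1.15 ± 0.14), while 2 other bright probe sets of it differed by 0.31 and 0.44.

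Of 64 transcription factors that mark glia and stem cells, 5 rose and 8 fell (median -0.34), and Olig1 alone was called under all 19 other settings. Olig1, a factor of oligodendroglia, read 1430, 1283 and 1375 against 256, 282 and 290 (-2.24 ± 0.12, adjusted p = 5.33e-05), with tight arrays in both groups. Its neighbour Olig2 read 380, 313 and 52 against 410, 306 and 129 and overlapped. The 5 rises were 1 and the 8 falls 1 in the fit of the 2 groups alone. The 5 rises were 1 to 3 without any one activated or quiescent array or irradiated replicate 2 or 4. The 8 falls were 3 to 5 without activated replicate 2 or 3, any quiescent array, or irradiated replicate 3 or 4. Sox2 (2068, 3420 and 3625 against 1802, 2260 and 2031, interval -1.18 to 0.10), Nr2e1 (8491, 1746 and 11731 against 5505, 6078 and 4634) and Pax6 (760, 451 and 411 against 976, 1617 and 767), which keep neural progenitors, were not called. Sox9, a glial and stem cell factor, was lower without a call (2333, 5053 and 4004 against 1883, 807 and 391, adjusted p = 0.0748). In the nuclear factor I family, Nfix rose from 8025, 10922 and 7146 to 19354, 18473 and 19944 (1.17, adjusted p = 0.0225), and its adjusted p was 0.0675 to 0.0785 without any one activated array or quiescent replicate 1 or 4. Nfia (0.71) and Nfib (1.41) were higher without a call.

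Of 22 clock genes 4 fell and 1 rose (median -1.33). The falls were 2 without quiescent replicate 1 or 4 and 1 in the fit of the 2 groups alone, and 2 rises were called without activated replicate 1. Nr1d1, a nuclear receptor that represses the clock, read 1021, 930 and 1479 against 123, 67 and 66 (-3.53 ± 0.31). It was also the only one of 35 nuclear receptors called (2.86%, against 6.02% of all genes), with a second fall without irradiated replicate 3. Bhlhe40, a clock-controlled repressor, read 598, 624 and 1879 against 53, 22 and 106. The rise was that of Timeless (4, 5 and 5 against 1279, 1422 and 1053), which in mammals travels with the replication fork.

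Receptors for growth factors fell in 7 of 32 cases and none rose (median -0.48), although 1 rise was called with the mean of a gene's probe sets. Fgfr3, an FGF receptor of astroglia, read 3659, 4512 and 3778 against 269, 128 and 148 (-4.40 ± 0.24, adjusted p = 5.44e-05). Fgfr2 read 3530, 2993 and 3674 against 497, 920 and 722 (-2.27 ± 0.21). The 95% interval of Fgfr3 ran from -4.95 to -3.85 and that of Fgfr2 from -2.77 to -1.76, and both receptors kept a measurable activated level. Fgfr1 fell by 2.11 with an adjusted p of 0.0315, which was 0.0551 to 0.103 without activated replicate 2 or 3, any quiescent array, or irradiated replicate 3 or 4. Lrig1, which restrains EGF receptor family members and marks quiescent stem cells in several tissues, read 5830, 6789 and 4819 against 399, 381 and 97 (-4.45 ± 0.53). Lifr, a receptor subunit for leukaemia inhibitory factor, read 526, 612 and 557 against 15, 5 and 28. Egfr itself, whose protein is widely used to sort activated stem cells, read 1338, 2488 and 683 on the quiescent arrays and 4490, 3359 and 4935 on the activated arrays. Its groups did not overlap, yet the quiescent arrays spread widely and the difference of 1.66 ± 0.64 was not called (adjusted p = 0.247). The other Egfr probe sets were higher too, by 0.33 to 2.69, the last at 159, 201 and 592 against 2117, 1267 and 2248. Ntrk2 and Cntfr were not called either (-0.93 and -0.90).

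Among 32 ligands, 3 fell and none rose (9.38% called, against 6.02% of all genes). Hbegf, an EGF receptor ligand, read 593, 309 and 435 against 5, 7 and 5 (-4.37 ± 0.31), so that it was near the lower limit on all activated arrays. Fgf1 read 450, 1811 and 856 against 11, 11 and 8. Midkine (Mdk) was bright in both groups (6413, 2355 and 3668 against 11230, 9936 and 6062) and overlapped. Downstream, Rasa2, which switches Ras off, fell from 2084, 2387 and 2126 to 262, 185 and 121 (-3.49 ± 0.26). Of 24 ERK pathway feedback genes, Rasa2 and Dusp6 fell and Dusp1 rose (12.5% called). The rise was lost without any one activated or quiescent array or irradiated replicate 2 or 3 (adjusted p up to 0.120), and the count of 2 falls was 1 in the fit of the 2 groups alone and without any one activated or quiescent array or irradiated replicate 3 or 4.

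In the Notch pathway 4 of 29 genes were called (13.8%, against 6.02% of all genes). Dner, a non-canonical ligand, read 4481, 6214 and 3031 against 665, 665 and 649 (-2.70 ± 0.24). Dll1, a ligand shown by cells that leave the stem state, read 4, 4 and 4 against 903, 504 and 114 (4.31 ± 0.62, adjusted p = 0.00639). Notch1 (2525, 2111 and 2816 against 3596, 2953 and 1470) overlapped and Notch2 (6972, 6948 and 11020 against 6343, 3370 and 4061) was lower without a call. The target Hes5 read 1294, 826 and 1671 against 963, 958 and 1235 and overlapped as well. The ligands Dll1, Dll3 and Jag1 rose and Dner fell. The 3 rises were 1 in the fit of the 2 groups alone and without activated replicate 2 or quiescent replicate 2 or 4, and a second fall was called without quiescent replicate 1 or 2. In the Wnt pathway 3 of 46 rose and 3 fell, with 1 rise in the fit of the 2 groups alone and without the dimmest 50% of genes. The receptor Fzd2 read 8017, 9528 and 10868 against 935, 835 and 1322 (-3.20 ± 0.19, adjusted p = 8.55e-05), and Lgr4, which strengthens Wnt signals, 2022, 3373 and 1220 against 150, 28 and 25. In the Hedgehog pathway the co-receptor Cdon rose from 386, 164 and 163 to 1361, 1156 and 1848. The effector Gli3 fell by 2.00, a call that was lost without activated replicate 2 or 3, any quiescent array, or irradiated replicate 2 or 4 (adjusted p 0.0535 to 0.114). Of 17 members these 2 were called (11.8%), with a second rise without activated replicate 3 and 2 falls without irradiated replicate 3. The receptor Ptch1 read 4130, 3349 and 3827 against 1469, 1572 and 1618 and narrowly missed the threshold (adjusted p = 0.0580).

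In the BMP and TGF-beta pathway 4 of 41 genes fell and none rose (9.76% called, against 6.02% of all genes). The count was 1 in the fit of the 2 groups alone and without activated replicate 2, and 2 without activated replicate 3 or quiescent replicate 2, and 1 rise was called without quiescent replicate 1. Gdf10 was the one called under all 19 other settings. Among the Id genes, inhibitors of differentiation that respond to BMP, Id3 and Id4 fell. Id4 read 14587, 15506 and 15532 against 11036, 9172 and 8717 (-0.66 ± 0.11), and Id3 2536, 2286 and 5327 against 745, 177 and 203 (-3.31 ± 0.57). The call of Id3 was lost without activated replicate 2 or 3 (adjusted p 0.0517 and 0.0506), and that of Id4 without activated replicate 2 or quiescent replicate 2 or 4 (0.0521 to 0.0556). Id2 (4067, 2118 and 4058 against 612, 157 and 37) missed the threshold (adjusted p = 0.0706), and Id1 was dim in both groups (90, 86 and 124 against 94, 68 and 56). The receptor Bmpr1a overlapped (0.11).

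Of 38 genes of GABA and glutamate, which clear or sense neurotransmitters, 14 fell and none rose (median -1.75), with 8 falls in the fit of the 2 groups alone. Slc1a3, the glutamate transporter of radial glia and astrocytes, read 13391, 17626 and 13543 against 3531, 3696 and 2229 (-2.25 ± 0.21). The GABA receptor subunit Gabrg1 read 3510, 3935 and 3571 against 194, 48 and 36, the glutamate receptor subunit Grin2c 3377, 1847 and 2546 against 108, 66 and 14, and the metabotropic receptor Grm3 9412, 12399 and 8890 against 1299, 688 and 1245. All 4 kept their groups well apart. Glrb, a glycine receptor subunit, missed the threshold (2178, 3559 and 3045 against 188, 135 and 1056, adjusted p = 0.0684). Of 49 G protein-coupled receptors 8 fell and none rose (median -0.93), with 3 falls in the fit of the 2 groups alone. The sphingosine receptor S1pr1 read 10396, 10308 and 9122 against 2152, 1440 and 873 (-2.82 ± 0.33), and Gpr146 1512, 1199 and 928 against 39, 37 and 10. Adgrg1, an adhesion receptor, had an interval from -1.27 to 0.59. Neuron markers moved with 1 array: the summed intensity of 14 markers of mature and striatal neurons was 17998 on quiescent replicate 1, 2177 and 649 on the other quiescent arrays and 606 to 1063 on the activated arrays. Their part in these falls was not tested.

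Of 25 water channel, gap junction and ion pump genes 11 fell and 2 rose (median -1.94), and the falls were 7 without any one quiescent array and 5 in the fit of the 2 groups alone. Gja1, the main astroglial gap junction protein, read 21157, 22141 and 20075 against 6854, 5283 and 4557 (-1.94 ± 0.15). Slc4a4, a bicarbonate cotransporter, read 6542, 6401 and 6451 against 350, 239 and 848 (-3.91 ± 0.40). Fxyd1, a regulator of the sodium pump, fell from 3634, 4978 and 2674 to 622, 377 and 404, while its relative Fxyd6 rose from 16, 12 and 4 to 169, 354 and 136. The water channel Aqp4 was 13825, 14231 and 11570 in quiescent cells and 2435, 1779 and 39 in activated cells. Its difference of -4.40 was not called (adjusted p = 0.116), and activated replicate 3 stood far below the other activated arrays. The other Aqp4 probe sets differed by -5.18 and -4.75, the latter at 3968, 4096 and 2755 against 83, 174 and 109. Of 49 ion channels 9 fell and none rose, with 3 falls in the fit of the 2 groups alone. The chloride channel Ttyh1 read 17903, 13895 and 14255 against 3555, 1899 and 1868, and Ttyh2 2359, 1412 and 2811 against 133, 59 and 245. Of 31 amino acid transporters 5 fell (3 in the fit of the 2 groups alone) and none rose, with the serine transporter Slc1a4 at 16979, 12019 and 16177 against 5001, 5012 and 4457 (-1.62 ± 0.17). Slc7a10 fell by 5.33, and the glutamine transporter Slc38a3 fell by 4.21. The list's median was 0.00, and 1 rise was called without quiescent replicate 1.

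Lipid handling held 17 falls and 2 rises among 47 genes (median -1.29), and 11 of these genes were called under all 19 other settings. Pla2g7, a lipoprotein-associated phospholipase, read 7095, 8691 and 6330 against 70, 173 and 264 (-5.47 ± 0.39). The cytochrome P450 genes Cyp2j9 (6865, 3735 and 4813 against 286, 200 and 216) and Cyp4f14 (846, 425 and 879 against 7, 17 and 7) fell as well. The 2 rises, Fabp7 and Cyp39a1, became 0 in the fit of the 2 groups alone and 1 without any one activated array, quiescent replicate 1 or 2, or irradiated replicate 2 or 4. The fatty acid carriers Dbi and Fabp5 were bright and close in both groups, with intervals from -0.52 to 0.01 and from -0.71 to 0.13. Among 47 glutathione, redox and detoxification genes 10 fell and 1 rose (median -0.91). The falls were 4 in the fit of the 2 groups alone, 5 without quiescent replicate 2 and 6 without activated replicate 2 or quiescent replicate 1, and the rise, of Txn1, was lost without activated replicate 2. Sod3, the extracellular superoxide dismutase, read 1019, 849 and 711 against 6, 9 and 9 (-5.18 ± 0.53). The cytosolic enzyme Sod1 read 12591, 11913 and 12154 against 11304, 10710 and 11243, with an interval from -0.55 to 0.27. Aldh6a1, of valine breakdown, fell by 3.53.

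Of 56 cadherins and neural adhesion molecules 14 fell, none rose, and only 11 had a difference above 0 (median -1.73). There were 9 falls without quiescent replicate 2 and 6 in the fit of the 2 groups alone, and 1 rise in that fit and without irradiated replicate 4. Vcam1, which anchors stem cells to the ventricular niche, read 4844, 5055 and 4303 against 536, 465 and 362 (-3.35 ± 0.17, adjusted p = 3.89e-05). Ncam1 read 6694, 6438 and 7329 against 333, 269 and 74 (-5.04 ± 0.47) on its brightest probe set. Of 2 other bright Ncam1 probe sets, 1 differed by -0.28 (2467, 4000 and 4696 against 2114, 3522 and 3460) and 1 by -0.38, both with overlap. The differences of the protocadherins Pcdh9 and Pcdh10 were -3.12 and -2.13. Astn1 and Celsr2 were lower without a call (adjusted p = 0.0634 and 0.0953). Of 50 matrix genes 15 fell and 2 rose (median -0.69), with 9 falls and no rise in the fit of the 2 groups alone. Sparcl1, a matricellular protein of astroglia, read 15916, 18040 and 14086 against 1954, 987 and 1106. The metalloproteinase inhibitor Timp3 read 6244, 5512 and 7316 against 711, 517 and 329, and Hapln1, a link protein of the hyaluronan matrix, 2546, 3477 and 4383 against 106, 49 and 85. Syndecan 4 (Sdc4) fell by 3.51. The 2 rises, Sdc1 and Slit1, were 1 without activated replicate 2 or quiescent replicate 1 or 2. Integrin, laminin and collagen genes gave no steady call. Of 38, 5 fell (13.2% called, against 6.02% of all genes). The count was 2 in the fit of the 2 groups alone and 1 or 2 without any one activated or quiescent array. Without quiescent replicate 4, 1 rise was called. Itgav read 3402, 4513 and 2870 against 666, 794 and 204, and its adjusted p of 0.0128 was 0.0508 without quiescent replicate 2.

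Of 22 tetraspanins, membrane organisers, 6 fell and none rose, and 3 fell without quiescent replicate 2. Cd81 read 15164, 14406 and 14969 against 6471, 4443 and 4749 (-1.52 ± 0.13), and Tspan15 288, 525 and 272 against 11, 11 and 11. Cd9 was lower without a call (721, 913 and 782 against 511, 560 and 315). Glycosyltransferases fell in 7 of 57 cases (median -0.75, 12.3% called against 6.02% of all genes). Called rises numbered 1 or 2, only without activated replicate 1 or 3 or quiescent replicate 1. The sialyltransferase St6gal1 read 2494, 2060 and 2335 against 446, 299 and 323. Fut9, which makes the LewisX epitope of neural stem cells, read 651, 348 and 365 against 42, 51 and 31. Mgat4a, an N-glycan branching enzyme, fell from 305, 304 and 157 to 5, 10 and 5. Among 65 guidance genes 3 rose and 5 fell (12.3% called), with 1 of each in the fit of the 2 groups alone. Epha3, an ephrin receptor, rose from 5, 5 and 5 to 1001, 1130 and 258 (5.03 ± 0.49), and Sema4a fell from 1515, 2388 and 1287 to 42, 99 and 15. The rises were 5 without activated replicate 1, and the falls 3 without any one activated array or irradiated replicate 2 or 4.

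Grb10, an imprinted brake on insulin signals, rose from 10, 7 and 6 to 246, 385 and 808 (4.23 ± 0.41), the only rise among 24 imprinted growth genes. Gatm, of creatine synthesis, fell, a call lost without any one activated or quiescent array or irradiated replicate 2 (adjusted p 0.0510 to 0.109). Nnat and Gnas, also imprinted, were bright in both groups and overlapped (0.19 and 0.77). Of 31 apoptosis regulators, Birc5, which also serves the passenger complex, and Bcl2l11 rose (5.26 and 2.89). Mcl1 and Bcl2 were not called (0.37 and -2.12). Called shares were 8.33% in the imprinted and septin lists, 6.45% in apoptosis, 4.35% in interferon and 1.89% in cilium, against 6.02% of all genes. In the interferon and antigen presentation list of 46 genes only the relatives Ifit2 and Ifit3 were called, in opposite directions, with a second fall without irradiated replicate 3. Ifit2 read 11, 6 and 6 against 814, 250 and 478, and Ifit3 221, 145 and 847 against 11, 6 and 8 (adjusted p = 0.0144, and 0.0537 without activated replicate 2). Dnah11, an axonemal dynein, rose from 5, 5 and 5 to 626, 352 and 207, alone among 53 cilium genes, of which 23 lay near the lower limit on all 6 arrays, and 2 falls were called without activated replicate 3. In the septins, Septin4 fell and Septin7 was not called (-0.76).

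Markers of other cells were measured beside these results. Oligodendrocyte precursor markers were low, at 2002 to 2485 and 656 to 1031, with Gpr17, Lhfpl3 and Pdgfra near the lower limit on all 6 arrays. Of these 9 precursor markers 1 fell, and 2 without activated replicate 3. Oligodendrocyte markers moved with the groups: 6 of 13 fell, and their summed intensity was 24904 to 38231 on the quiescent arrays and 1803 to 5779 on the activated arrays. Cnp, an enzyme of myelinating cells, read 8137, 11081 and 9411 against 1159, 1152 and 1519 (-2.89 ± 0.20), Ermn 642, 971 and 770 against 10, 9 and 24, and Gjb1 was near the lower limit on all 6. The 6 falls were 2 without quiescent replicate 2 and 3 without activated replicate 1. Olig1, Mal, Omg and Septin4 are also genes of oligodendroglia, and the part of such cells in their falls was not tested. Endothelial markers summed to 7455 to 9177 on the quiescent arrays and 706 to 1027 on the activated arrays, and 89.4% of the quiescent sum came from Slco1c1, a thyroid hormone carrier. Pecam1, Tie1 and Vwf lay near the lower limit on all 6 arrays. Flt1 (166, 392 and 5 against 5, 23 and 121) and Cldn5 (146, 103 and 5 against 45, 43 and 219) overlapped and were not called. The call of Slco1c1 (adjusted p = 0.0206) was lost without any one quiescent array (0.0604 to 0.0705), although 3 endothelial markers were called without quiescent replicate 4.

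Pericyte and fibroblast markers summed to 2276 to 6087 and 516 to 873, with Dcn, Lum and Tagln near the lower limit on all 6 arrays, and 2 of 13, Pdgfrb and Col1a1, fell. No fall was called in that list without any one activated or quiescent array or irradiated replicate 1, and 1 without irradiated replicate 4. Microglial markers were uneven. They summed to 78 to 1124 on the quiescent arrays and to 223, 515 and 4525 on the activated arrays, the last with Csf1r at 2520 and C1qb at 1424 on activated replicate 3. None of the 14 was called. Aif1, Itgam, Mrc1, Ptprc, Tmem119 and Trem2 were near the lower limit on all 6. Ependymal markers summed to 55 to 80 and 58 to 59, and Foxj1 was at most 15. Haemoglobin Hba-a2 was present in both groups (1037, 4648 and 1533 against 4019, 3789 and 3519) and overlapped. The part of these cells in the results above was not tested.

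**Figure D5:**
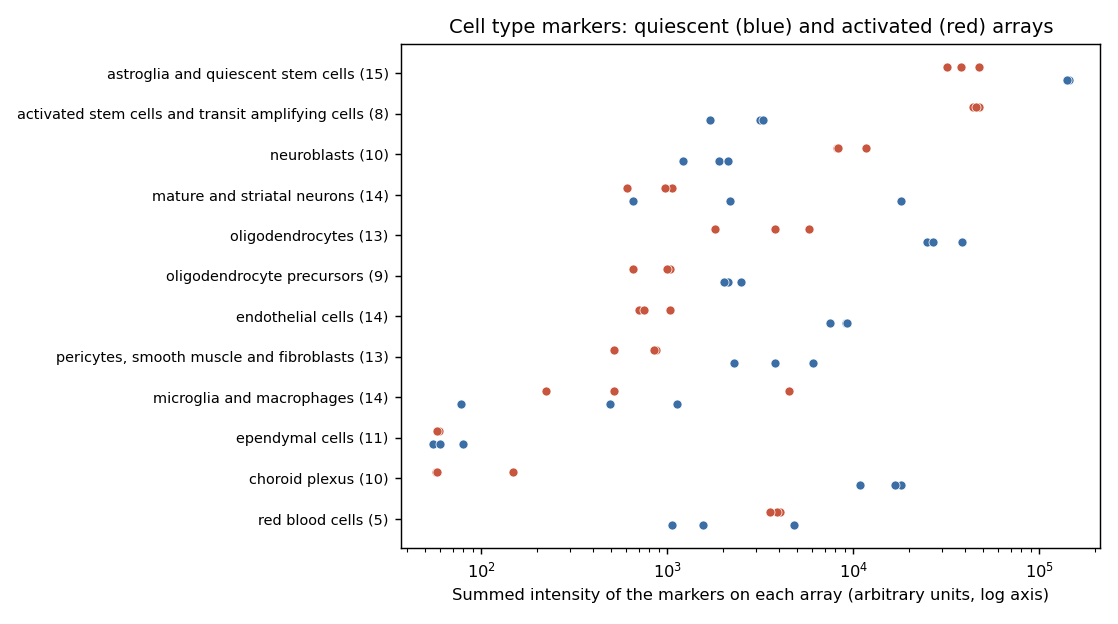
Summed intensity of 12 lists of cell type markers on each of the 3 quiescent arrays (blue) and 3 activated arrays (red), on a log axis in arbitrary units, with the number of markers measured in parentheses. Astroglial, oligodendrocyte, oligodendrocyte precursor, endothelial, pericyte and choroid plexus sums are higher on every quiescent array, and activated and neuroblast sums on every activated array. Neuron and microglial sums are set apart by 1 array each, at 17998 and 4525.

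Spread and repeat measurements bear on these values. Among genes with a mean over 100, the median standard deviation within a group was 0.94 on the log2 scale for quiescent cells and 0.76 for activated cells. There were 69 genes on the quiescent arrays, and 26 on the activated arrays, that were at 10 or less on 1 array and over 1000 on another. Correlation across genes was 0.842 to 0.859 between quiescent arrays, 0.862 to 0.914 between activated arrays and 0.708 to 0.775 between the groups. Called genes had a median SE of 0.45, against 0.80 over genes bright in both groups. For 575 called genes the platform held another probe set bright enough to compare (a mean over 50), and 983 of 1026 such probe sets (95.8%) differed in the same direction. Their median size in that direction was 2.30, against 3.09 for the representing probe sets. Pacc1 was an exception, with a difference of -2.24 on its representing probe set and 1.87, 2.06 and 2.09 on the other 3.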

How the data were processed

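The deposited table holds linear intensities, as whole numbers with 1 for every probe set on each array, from Affymetrix MOE 430 2.0 arrays. Per the labels, RNA from sorted cells was amplified and biotin-labelled before hybridisation. How the authors made these intensities, software and normalization included, is not given in the sources used here. The 75th percentiles of the arrays lay between 83 and 104, so no further normalization was applied. Of 12 columns, 2 held no values and were not analysed here.

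Probe sets were named through the platform annotation, of which 932 carried several symbols and 9160 none, and 34741 matched the RefSeq table by gene ID. A gene was represented by its brightest single-symbol probe set, by the mean of all arrays. log2(intensity + 16) was fitted with limma 3.58.1 in R 4.3.3 (lmFit with 1 mean per group over 10 arrays, then eBayes), giving 7 residual degrees of freedom. P-values were two-sided and adjusted by the Benjamini-Hochberg method over 18193 genes. Alternatives were 10 fits leaving out 1 array each, other pseudocounts, scaling, array weights, a mean of probe sets, a filter on dim genes, a fit of the 2 groups alone and a replicate block.

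Genes named with values were the 12 largest rises and falls, up to 4 called and 2 bright uncalled members of each list, a set of known stem cell genes, and the 12 brightest genes with a narrow interval, of which part is given. Kif1b, Pacc1 and the called members of short lists that this rule left out were named after their values were seen. The comparison and the gene lists were chosen with earlier results of these data known.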

Additional observations from a re-analysis of the deposited data

How the results depend on the processing

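The number of called genes was 784 to 1051 when 1 array at a time was left out, lowest without activated replicate 2, against 1095 with all arrays. Rises numbered 371 to 509 and falls 396 to 542 in these fits. Fitting the 2 groups alone gave 694 calls, of which 324 were falls. With the replicate number as a block there were 459 calls, 243 higher and 216 lower, of which 431 were called without it. The groups share only replicate numbers 1 and 2, and deviations of same-numbered arrays correlated at 0.0142 and -0.0209, so the numbers were not taken to pair the samples. Genes near the lower limit in quiescent cells and over 100 in activated cells numbered 127 to 158 when 1 array was left out. The reverse pattern gave 47 to 73, with 67 without quiescent replicate 4, 63 without activated replicate 1 and 73 without activated replicate 2, since fewer arrays then have to meet the condition. Narrow intervals were found in 102 to 140 genes without 1 array, and in 326 with the mean of a gene's probe sets.

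Over 292 genes eligible to be named and the alternative fits, 5519 of 5835 values kept their direction and side of the threshold, 209 lost a call, 106 gained one, and 1 reversed: Ndufc2 became 0.11 (adjusted p = 1) when its probe sets were averaged, and the cause was not tested. Of 158 called genes among them, 119 stayed called under every alternative but the replicate block. Values near 10 are close to the lower limit of the table, so a difference there depends on the constant added before the logarithm.

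With probe sets of a gene averaged, counts of several lists were higher: 18 condensin and cohesin genes rose, 15 of nuclear pore and Ran transport, 13 of nucleotide synthesis, 13 of the interneuron lineage and 13 of tubulin and neuroblast cytoskeleton, and 14 glial and stem cell factors, 11 growth factor receptors and 8 clock genes fell. Chromatin remodelling genes gave 5 to 9 rises under the other settings, beyond leaving out an array or the replicate block (0 rises), that moved their count of 3, and nucleotide synthesis 4 with 1 added before the logarithm.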
